A study of Mus musculus with 18 samples.

Results

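The genes described here are targets of glucocorticoid hormones, among them Zbtb16, together with the gene of the glucocorticoid receptor. They were chosen by symbol from a list of 10, Zbtb16, Fkbp5, Sgk1, Tsc22d3, Klf9, Pdk4, Cdkn1a, Mt1, Mt2 and Nr3c1, out of 19937 genes that had a probeset carrying 1 symbol. Of these 10, 9 had such a probeset, 1 each. The probeset of Cdkn1a, which encodes an inhibitor of cyclin-dependent kinases, also carries the symbol of another gene, so no value is given for it. Each of 18 male mice gave hypothalamic RNA for an array of its own, of the type Affymetrix Mouse Gene 1.0 ST. The ‘peak’ BP groups held 6 BPH/2J and 6 BPN/3J mice of 26 weeks taken in their active period, and the ‘trough’ BP groups held 3 BPH/2J and 3 BPN/3J mice taken in the inactive period. BPH/2J is the Schlager hypertensive strain and BPN/3J its normotensive relative, both inbred, and no mouse received a treatment beyond standard housing. The sample labels give the ‘trough’ mice an age of 18 weeks and the series text one of 19 weeks, so age and time of day cannot be told apart in any comparison of ‘peak’ with ‘trough’ BP. The strain label of the BPN/3J ‘trough’ mice reads BPH/2J, while their titles and blood pressure label give the normotensive strain, and the titles were followed. The labels describe the tissue as the whole hypothalamus, whereas the study's methods name dissected nuclei, and the arrays measure the RNA of all cells together, so that fewer cells of a type and less RNA per cell cannot be told apart.

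Corticosterone, the main glucocorticoid of the mouse, is released in a daily rhythm that is highest around the start of the active period, and in bursts under stress. It crosses into the brain and binds the receptor encoded by Nr3c1, which is held ready by Hsp90 and its co-chaperones, moves into the nucleus and binds inverted repeats in DNA called glucocorticoid response elements. Through them it raises transcription of a set of genes that is partly shared between tissues and includes those described here. In the hypothalamus the same receptor takes part in the feedback that restrains the release of corticotropin-releasing hormone.

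Start-site windows of 250 bases before and 50 bases after the start, from RefSeq on the GRCm38.p6 build, covered 8 of the 10 genes, all but Zbtb16 and Nr3c1, with 16 windows. The full response element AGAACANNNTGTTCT, searched on both strands, was present in 3 of 32851 windows of this length, or 0.00913%, and 1 of these 3 belonged to Sgk1, the gene on which the comparisons below turn. It lay 189 to 175 bases before one of the 6 Sgk1 starts, in the window chr10:21993640-21993939 on the plus strand, and is in capitals in the first sequence. The metal response element core, TGCACNC or TGCGCNC on either strand, was present in 25.7% of all windows and in 3 of the 16, including another of the Sgk1 windows. It occurred 3 times in that of Mt1, chr8:94178839-94179138, and 4 times in that of Mt2, chr8:94172368-94172667, both on the plus strand. These 2 windows are shown because both genes answer to metals as well as to glucocorticoids, and their cores are in capitals.
Sgk1: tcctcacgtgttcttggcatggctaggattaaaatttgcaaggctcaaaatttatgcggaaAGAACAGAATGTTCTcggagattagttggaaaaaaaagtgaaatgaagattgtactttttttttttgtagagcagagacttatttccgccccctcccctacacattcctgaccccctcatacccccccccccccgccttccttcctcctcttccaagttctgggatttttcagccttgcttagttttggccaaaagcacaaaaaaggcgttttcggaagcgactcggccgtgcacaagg
Mt1: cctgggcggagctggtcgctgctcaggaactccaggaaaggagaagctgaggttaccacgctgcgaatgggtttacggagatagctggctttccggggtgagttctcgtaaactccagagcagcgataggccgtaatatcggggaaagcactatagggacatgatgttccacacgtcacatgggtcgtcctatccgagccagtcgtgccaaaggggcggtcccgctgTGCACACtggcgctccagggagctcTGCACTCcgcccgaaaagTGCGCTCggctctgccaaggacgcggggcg
Mt2: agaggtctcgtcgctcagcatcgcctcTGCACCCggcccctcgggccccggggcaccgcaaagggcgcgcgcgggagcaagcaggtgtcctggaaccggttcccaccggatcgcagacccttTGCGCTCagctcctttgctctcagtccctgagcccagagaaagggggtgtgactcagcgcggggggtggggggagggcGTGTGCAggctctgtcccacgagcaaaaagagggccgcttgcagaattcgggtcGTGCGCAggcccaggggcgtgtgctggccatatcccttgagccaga
The shorter response element core GNACANNNTGTNC, which every full element contains, was found in 0.475% of windows, among them that of Sgk1 and that of Mt1, where it lay 94 to 82 bases before the start. The half-site AGAACA was found in 4 of the 16 windows, of Sgk1 and Tsc22d3, against 19.0% of all windows, and the E-box CACGTG in 2 of the 16, of Fkbp5 and Sgk1, against 7.15%. The starts of Mt1 and Mt2 lie 6471 bases apart on chromosome 8.

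Each value below is a log2 signal after robust multi-array averaging (RMA), as the authors deposited it, so that a difference of 1 is a 2-fold change. The median of all probesets ran from 6.17 to 6.42 over the 18 arrays, and the mean signals of the 9 genes lay between the 65.5 percentile of all probesets, for Pdk4, and the 98.6 percentile, for Mt1. Differences were tested with limma, and those with an adjusted p under 0.05 over all 34760 probesets are said to have passed.

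Glucocorticoid-responsive genes had higher means in BPH/2J than in BPN/3J mice at ‘peak’ BP, but Sgk1 was the only one that passed the test. All 9 differences were positive, against 48.2% of all probesets, and their median was 0.29, against -0.01 over all probesets. The single gene that passed compares with 1.33% of all probesets, 0.616% passing in the higher direction. At an unadjusted p under 0.05 the count was 6 of 9, against 9.93% of all probesets. The 9 genes share the same mice, and are known to be regulated together, so that their number is not a number of independent observations.

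Sgk1, the serum- and glucocorticoid-regulated kinase that raises the activity of ion channels and transporters such as the epithelial sodium channel, had a lowest, median and highest value of 9.24, 9.38 and 9.54 in BPH/2J mice at ‘peak’ BP, against 8.53, 8.89 and 8.99 in BPN/3J mice. Every BPH/2J mouse thus lay above every BPN/3J mouse, as was the case in the higher direction for 0.745% of all probesets. The means were 9.39 ± 0.10 in BPH/2J mice and 8.85 ± 0.17 in BPN/3J mice (SD, n = 6 each), a difference of 0.54 (SE 0.12) or 1.45-fold, with a limma adjusted p of 0.0307. This call was lost without any one of 5 of the BPH/2J ‘peak’ mice (numbers 4 to 8) or of 3 of the BPN/3J ‘peak’ mice (numbers 5, 7 and 8), where the difference was 0.48 to 0.55 and the adjusted p 0.0581 to 0.0724. It was also lost when BPH/2J ‘peak’ mice 8 and 9 and BPN/3J ‘peak’ mice 10 and 11 were left out together, at a difference of 0.62 with a limma adjusted p of 0.102.

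Zbtb16, a zinc finger transcription factor of the BTB family that glucocorticoids induce in several tissues, had a lowest, median and highest value of 7.95, 8.49 and 8.71 in BPH/2J mice at ‘peak’ BP, against 7.55, 7.95 and 8.12 in BPN/3J mice. The groups overlapped through BPH/2J mice 4 and 8, at 8.04 and 7.95, while the other 4 BPH/2J mice lay above every BPN/3J mouse. The difference of the means was 0.51 (SE 0.17, 1.42-fold), nearly that of Sgk1, with a wider spread within the strains and a limma adjusted p of 0.229. Zbtb16 is one of the genes that the study singled out on these same arrays, so its differences here are no independent evidence.

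Fkbp5 encodes a co-chaperone that lowers the affinity of the receptor for its hormone and is itself induced by it, which makes it a short feedback loop. Its lowest, median and highest values were 8.36, 8.49 and 8.78 in BPH/2J mice at ‘peak’ BP, against 7.88, 8.19 and 8.38 in BPN/3J mice. The groups overlapped only where the highest BPN/3J mouse, at 8.378, lay above the lowest BPH/2J mouse, at 8.355. The difference was 0.37 (SE 0.11, limma adjusted p = 0.13).

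Tsc22d3, which encodes the glucocorticoid-induced leucine zipper, an inhibitor of inflammatory signalling, had values of 8.33, 8.46 and 8.63 (lowest, median, highest) in BPH/2J mice at ‘peak’ BP, against 8.03, 8.12 and 8.57 in BPN/3J mice. The overlap rested on BPN/3J mouse 10, at 8.57, since the other 5 BPN/3J mice lay below every BPH/2J mouse. The difference was 0.29 (SE 0.10, limma adjusted p = 0.235), and without mouse 10 it was 0.37 with a limma adjusted p of 0.0346, which passes. Taking out the highest BPN/3J mouse must widen the difference, so this pass is no gain of support. Without any other single array Tsc22d3 did not pass.

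The remaining differences at ‘peak’ BP were smaller or less certain. Klf9, a Krüppel-like transcription factor, averaged 9.60 ± 0.13 in BPH/2J mice, against 9.40 ± 0.07 in BPN/3J mice, and Pdk4, a kinase that switches off pyruvate dehydrogenase, averaged 7.58 ± 0.22 in BPH/2J mice, against 7.39 ± 0.11 in BPN/3J mice (SD, n = 6 each). The limma adjusted p was 0.44 for Klf9 and 0.678 for Pdk4. Mt1 and Mt2, metallothioneins that bind zinc and copper, differed between the strains by 0.20 (SE 0.09) for Mt1 and 0.40 (SE 0.22) for Mt2. Nr3c1, the receptor gene, averaged 9.63 ± 0.08 in BPH/2J mice, against 9.57 ± 0.18 in BPN/3J mice, a difference of 0.06 with a 95% interval of -0.11 to 0.23.

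**Figure D1:**
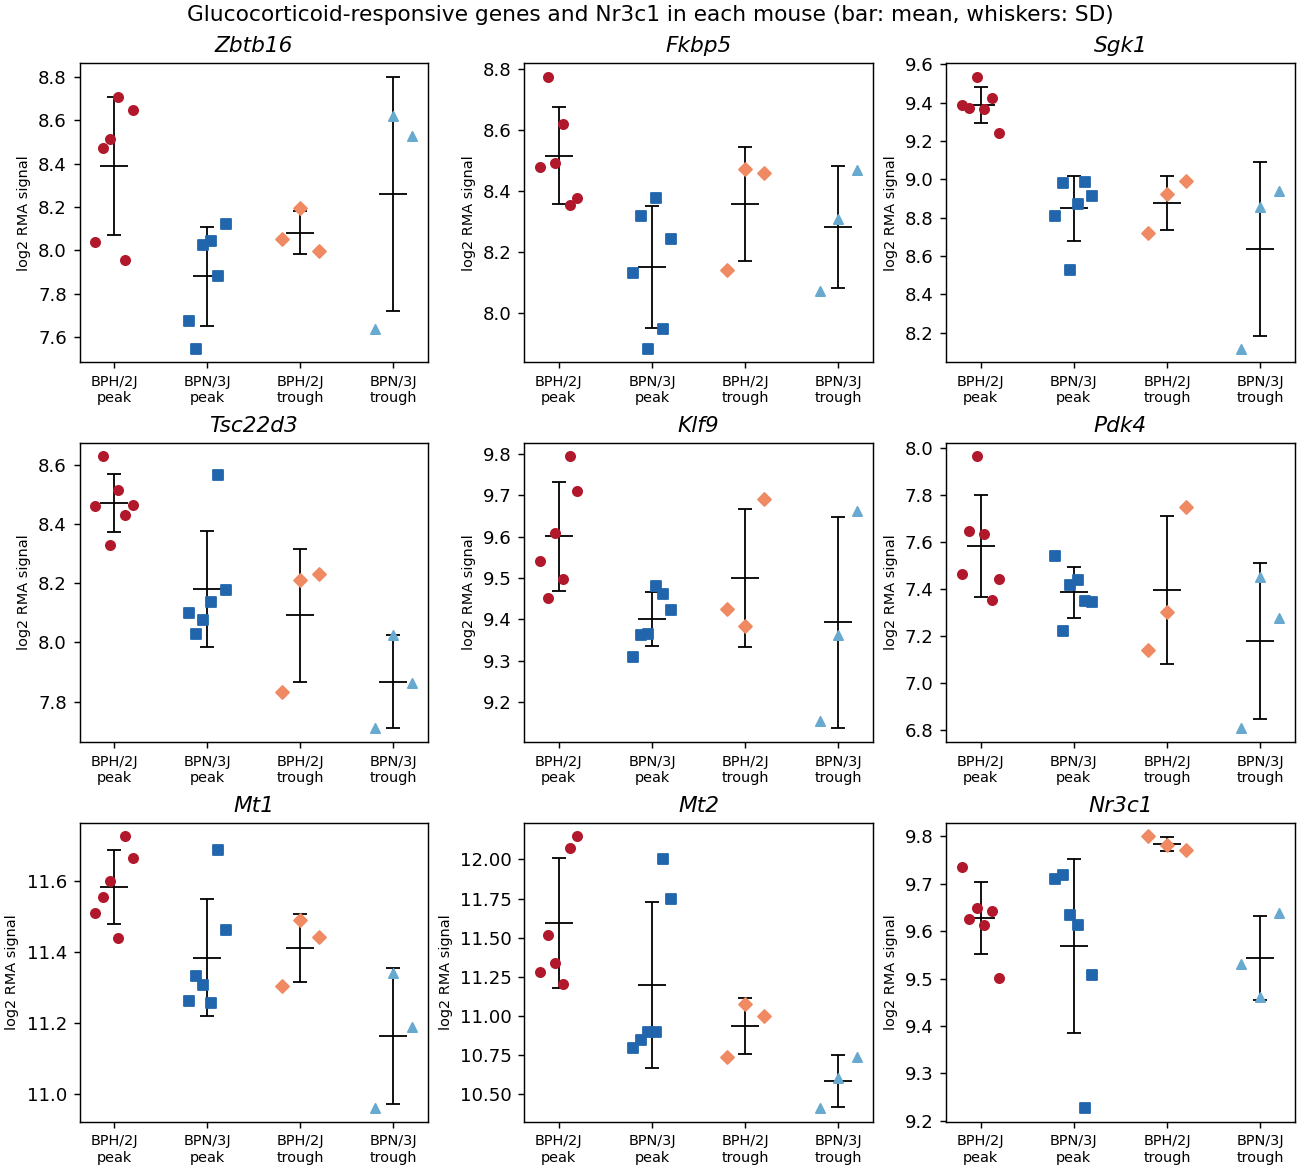
Log2 RMA signal (vertical axis, its own scale in each panel) of the 9 genes in each mouse, with the 4 groups side by side, a bar for the mean and whiskers for the SD. Sgk1 at ‘peak’ BP is the one gene whose BPH/2J mice (9.24 to 9.54) all lie above the BPN/3J mice (8.53 to 8.99), while Zbtb16 in the BPN/3J ‘trough’ mice runs from 7.64 to 8.62.

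At ‘trough’ BP no gene of the group passed between the strains, against 0.529% of all probesets, and 1 of the 9 (Nr3c1) had an unadjusted p under 0.05, against 10.4%. The differences were positive for 8 of the 9, against 50.4% of all probesets, with a median of 0.23. Oligodendrocyte and endothelial markers, read below, had medians of 0.29 and 0.25, so a shift of this size was not particular to these genes. Of the 9, only Zbtb16 was lower in BPH/2J mice. It stood at 8.05, 8.19 and 7.998 in the BPH/2J mice, against 7.64, 8.62 and 8.53 in the BPN/3J mice, a difference of -0.18 (SE 0.24, limma adjusted p = 0.811). The BPN/3J mice thus lay on either side of the BPH/2J mice, and the difference was -0.49 without BPN/3J mouse 1, the low one, and 0 to the third decimal without BPN/3J mouse 3, the highest.

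Sgk1 at ‘trough’ BP was 8.72, 8.92 and 8.99 in the BPH/2J mice, against 8.12, 8.86 and 8.94 in the BPN/3J mice. Here too BPN/3J mouse 1 was low, and the difference of 0.24 (SE 0.17, limma adjusted p = 0.629) became -0.02 without it. Fkbp5 stood at 8.14, 8.47 and 8.46 in the BPH/2J mice, against 8.07, 8.31 and 8.47 in the BPN/3J mice, with overlapping groups. In BPN/3J mouse 1 itself, 7 of the 8 genes other than Zbtb16 had their lowest value of that group.

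Nr3c1 at ‘trough’ BP was 9.80, 9.78 and 9.77 in the BPH/2J mice, against 9.53, 9.46 and 9.64 in the BPN/3J mice. The groups did not overlap, as for 19.9% of all probesets with 3 mice on each side, and the difference was 0.24 (SE 0.11, limma adjusted p = 0.467). The receptor gene was the only one of the 9 whose highest group mean was in BPH/2J mice at ‘trough’ rather than ‘peak’ BP. For Tsc22d3, Klf9, Pdk4, Mt1 and Mt2 the strain difference lay between 0.11 and 0.35, with adjusted p from 0.495 to 0.778.

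Between the 2 times, 8 of the 9 genes had higher means at ‘peak’ than at ‘trough’ BP in BPH/2J mice and 7 of 9 in BPN/3J mice, against 46.9% and 48.6% of all probesets. In BPH/2J mice Sgk1 passed, against 8.64% of all probesets (4.25% in the higher direction), and 3 of the 9 genes had an unadjusted p under 0.05, against 23.1%. In BPN/3J mice no gene of the group passed, against 25.3% of all probesets, and 2 had an unadjusted p under 0.05, against 39.9%. The count of 1 in 9 in BPH/2J mice is near the share of all probesets, and the count of 0 in BPN/3J mice is below it.

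The BPH/2J mice held the Sgk1 values given above, 9.24 to 9.54 at ‘peak’ against 8.72 to 8.99 at ‘trough’ BP, with no overlap, which 8.19% of all probesets showed in the same direction. The difference was 0.51 (SE 0.15, limma adjusted p = 0.0403). It was lost without any one of 10 of the 18 arrays, namely BPH/2J ‘peak’ mice 4 to 8, BPN/3J ‘peak’ mice 5 and 8 and each of the 3 BPH/2J ‘trough’ mice, with differences of 0.43 to 0.57 and adjusted p of 0.0508 to 0.21. In BPN/3J mice the difference was 0.21 (SE 0.15, limma adjusted p = 0.299).

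Tsc22d3 was 8.33 to 8.63 in BPH/2J mice at ‘peak’ BP, against 7.83, 8.21 and 8.23 at ‘trough’ BP, and 8.03 to 8.57 in BPN/3J mice at ‘peak’ BP, against 7.71, 8.03 and 7.86 at ‘trough’ BP. In both strains every ‘peak’ mouse lay above every ‘trough’ mouse, though narrowly in BPN/3J. The same was the case for 8.19% of all probesets in BPH/2J mice and 11.6% in BPN/3J mice. The differences were 0.38 in BPH/2J mice and 0.31 in BPN/3J mice (SE 0.12 each, limma adjusted p = 0.0588 and 0.0626), just short of the threshold. Zbtb16 gave 0.31 (SE 0.21) in BPH/2J and -0.38 (SE 0.21) in BPN/3J mice. The BPN/3J value was -0.69 without ‘trough’ mouse 1, with a limma adjusted p of 0.0323, which passes in the lower direction. Taking out the lowest ‘trough’ mouse must widen this difference, so the pass is no gain of support. Fkbp5 had the same pair of signs, at 0.16 in BPH/2J mice and -0.13 in BPN/3J mice (SE 0.13 each). The differences of Klf9, Pdk4 and Mt1 lay between 0.10 and 0.19 in BPH/2J mice and between 0.008 and 0.22 in BPN/3J mice. Nr3c1 gave -0.16 in BPH/2J mice and 0.025 in BPN/3J mice (SE 0.10 each, limma adjusted p = 0.354 and 0.865).

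The order of the group means differed among the genes. The highest mean was in BPH/2J mice at ‘peak’ BP for 8 of the 9 genes. The lowest was in BPN/3J mice at ‘trough’ BP for 7 of 9, but in BPN/3J mice at ‘peak’ BP for Zbtb16 and Fkbp5. This order rested in part on BPN/3J ‘trough’ mouse 1, without which the lowest mean was in BPN/3J mice at ‘peak’ BP for 4 genes, Zbtb16, Fkbp5, Sgk1 and Klf9, and the highest mean of Zbtb16 was in BPN/3J mice at ‘trough’ BP. For Zbtb16 the means ran 8.39 ± 0.32 (BPH/2J ‘peak’), 8.26 ± 0.54 (BPN/3J ‘trough’), 8.08 ± 0.10 (BPH/2J ‘trough’) and 7.88 ± 0.23 (BPN/3J ‘peak’), with n = 6 at ‘peak’ and n = 3 at ‘trough’ BP, and each neighbouring pair overlapped. For Sgk1 only the BPH/2J ‘peak’ mice stood apart, and the other 3 groups, at 8.88 ± 0.14, 8.85 ± 0.17 and 8.64 ± 0.45, overlapped one another.

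Whether the strain difference itself changed between the times was tested by d, the BPH/2J minus BPN/3J difference at ‘peak’ BP less that at ‘trough’ BP, whose fold is the aFD by which the study chose genes. No probeset of the 34760 passed (0%), and d was positive for 6 of the 9 genes, against 47.8% of all probesets. Zbtb16 had the largest d of the 9 genes, 0.69 (SE 0.29, 95% interval 0.07 to 1.31, aFD 1.61), with an unadjusted p of 0.0318 and a limma adjusted p of 0.596. The study also measured Zbtb16 by quantitative PCR and reported an aFD in the same direction, which the values here do not include. An aFD of 1.5 or more was reached by 5.93% of all probesets, and an unadjusted p under 0.05 by 8.31%. Without BPN/3J ‘trough’ mouse 1 the value was 1.00, and without BPN/3J ‘trough’ mouse 3 it was 0.51. The other 8 genes had d between -0.18, for Nr3c1, and 0.30, for Sgk1, with Fkbp5 at 0.29, and adjusted p from 0.653 to 0.984, so that no gene's response was shown to differ in size between the times. The comparisons share groups of mice, so their values are set side by side and not correlated with each other.

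**Figure D2:**
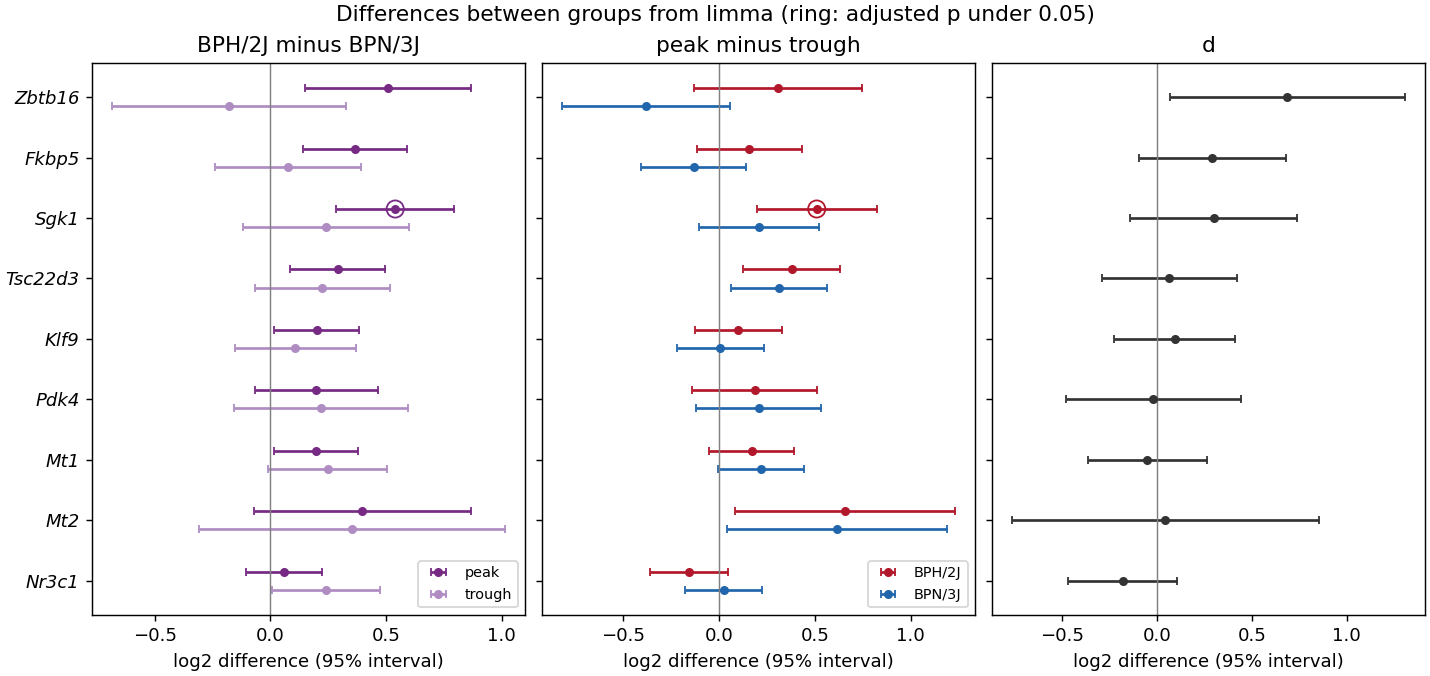
Log2 differences with 95% intervals from limma for the 9 genes, with BPH/2J minus BPN/3J on the left (‘peak’ BP above ‘trough’ BP), ‘peak’ minus ‘trough’ BP in the middle (BPH/2J above BPN/3J) and d on the right. Rings mark the 2 differences that passed, both of Sgk1 (0.54 and 0.51), and Zbtb16 is the gene whose strain differences at the 2 times have opposite signs (0.51 and -0.18).

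Across mice of a group, Zbtb16 was set against each of the 8 other genes in the 6 BPH/2J and in the 6 BPN/3J mice at ‘peak’ BP, 16 tests in all, each an exact 2-sided permutation test over 720 orderings. None had an unadjusted p under 0.05, and all 16 had an adjusted p of 0.807. The correlation was positive for 3 of 8 partners in BPH/2J and 5 of 8 in BPN/3J mice. With Fkbp5 Pearson's r was 0.40 in BPH/2J mice (exact permutation p = 0.426, Spearman's rho 0.43 with exact permutation p = 0.419) and -0.14 in BPN/3J mice (exact permutation p = 0.771, rho 0.09 with exact permutation p = 0.919). Without the 2 mice farthest from the Zbtb16 median these became -0.40 and 0.58, each over 4 mice. With Sgk1, the gene with the clearest group difference, r was -0.29 for BPH/2J, against -0.32 for BPN/3J mice (exact permutation p = 0.574 and 0.585, rho -0.60 and -0.20 with exact permutation p = 0.242 and 0.714), and -0.52 and -0.22 without the farthest mice. Groups of 6 leave a wide range of true correlations possible, and the 3 mice of a ‘trough’ group are too few for a correlation.

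Deviations of each mouse from its group mean bring all 18 arrays together. Zbtb16 deviated in the same direction as 7 of the 8 other genes on average, Nr3c1 being the exception with r = -0.28. The highest was Pdk4, with r = 0.53 (permutation p = 0.08, adjusted p = 0.24 over 36 pairs of the 9 genes; rho 0.47, permutation p = 0.106, adjusted p = 0.254). It was 0.25 without the 2 arrays farthest from the median of Zbtb16. Sgk1 followed with r = 0.40 (permutation p = 0.374, adjusted p = 0.609; rho 0.28, permutation p = 0.404, adjusted p = 0.661), and with 0.07 without those arrays.

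These values rested on 1 mouse, BPN/3J ‘trough’ mouse 1, with a deviation of -0.62 from its group mean for Zbtb16 and of -0.52 for Sgk1. Without it r was -0.26 with Sgk1, -0.18 with Klf9, -0.04 with Mt1 and 0.28 with Pdk4, and 4 of the 8 partners remained positive. As a background, r with Zbtb16 over the 34759 other probesets had a median of -0.002 and a central 95% from -0.51 to 0.49, and 49.7% were positive. An r at least as high as that of Pdk4 was found for 1.55% of probesets, as that of Sgk1 for 5.58%, of Fkbp5 for 9.49%, of Tsc22d3 for 10.1% and of Nr3c1 for 85%. The shared array, and with it its RNA quality and tissue composition, enters every such r.

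**Figure D3:**
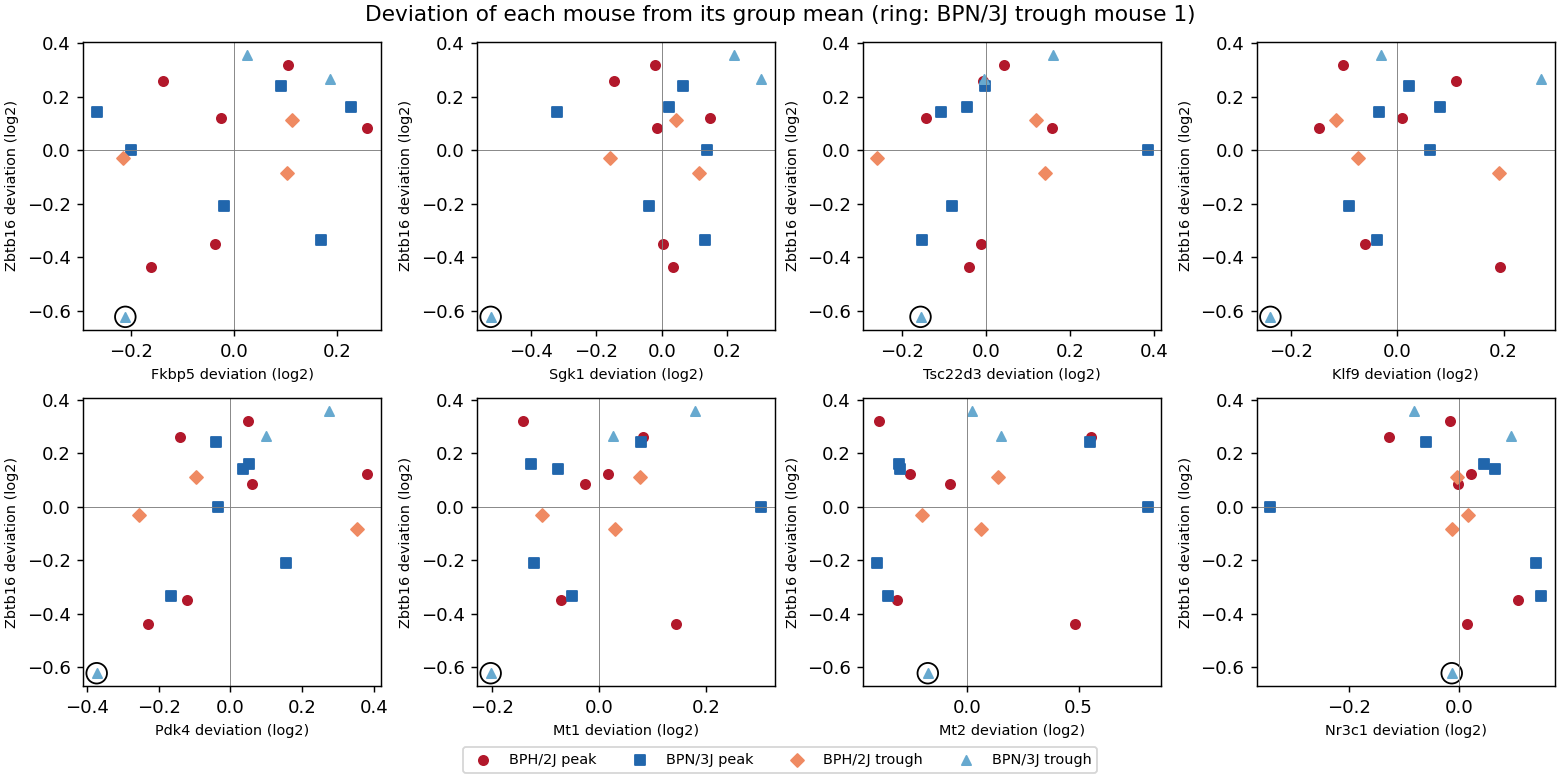
Deviation of Zbtb16 from its group mean (vertical, log2) against that of each other gene (horizontal, log2) in 18 mice, with colour and shape for the group. The ringed BPN/3J ‘trough’ mouse 1 sits at the bottom of every panel and at the left edge for Sgk1, Klf9, Pdk4 and Mt1. Without it r with Sgk1 is -0.26 instead of 0.40.

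The 5 genes whose deviations were most like those of Zbtb16 over the 18 arrays were none of the glucocorticoid-responsive ones. The choice was made among probesets of 1 symbol, with predicted genes left out. The 5 were Phactr4 (r = 0.84), Zfp871 (0.83), Cop1 (0.82), Hipk2 (0.79) and Prrg1 (0.79), given as a description. Without BPN/3J ‘trough’ mouse 1 their r was 0.81, 0.71, 0.78, 0.73 and 0.82 in the same order. These genes were chosen for a high r on the same arrays, so these values are no independent evidence of a likeness.

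**Figure D4:**
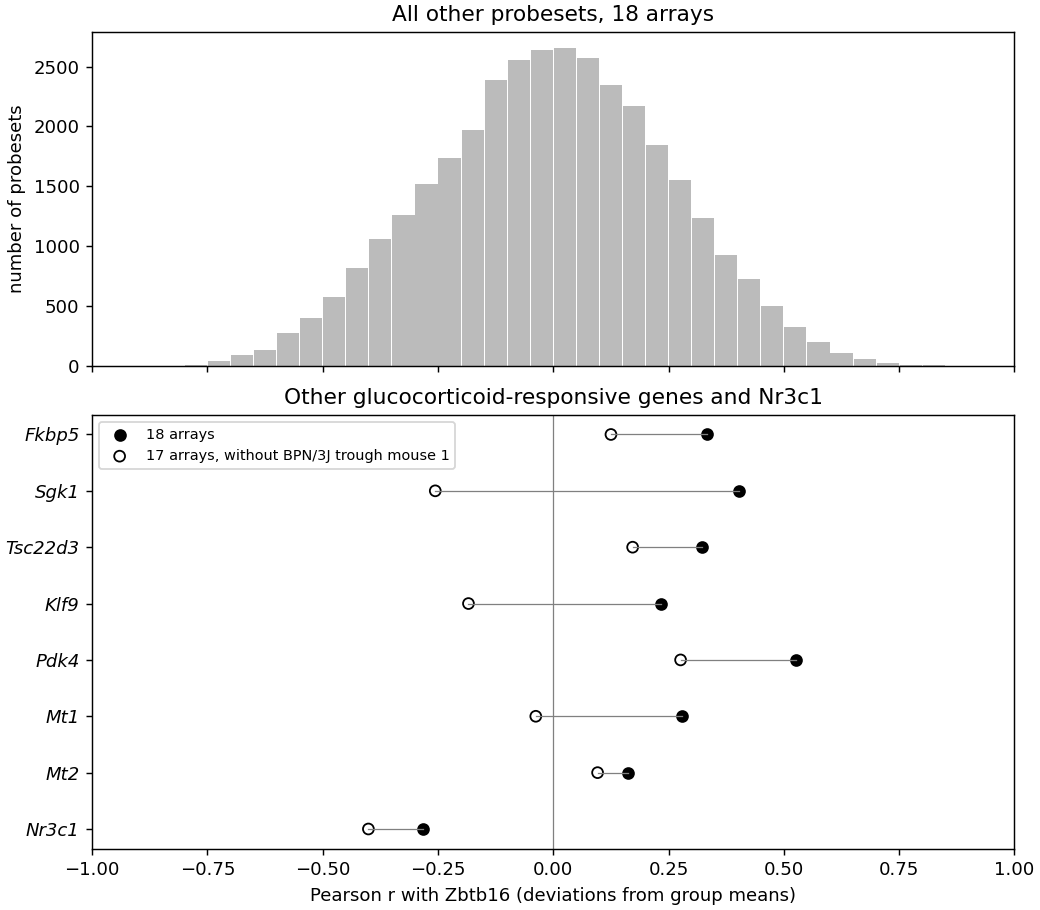
Top, the number of probesets by their Pearson r with Zbtb16 over 18 arrays, after removal of group means. Bottom, the same r for the other 8 genes (filled) and without BPN/3J ‘trough’ mouse 1 (open), where those of Sgk1, Klf9 and Mt1 change sign.

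Of the metallothionein genes, Mt2 varied widely within the ‘peak’ groups, and Mt1 was high in the same mice. Mt2 was 12.08 and 12.15 in BPH/2J ‘peak’ mice 8 and 9, against 11.20 to 11.52 in BPH/2J mice 4 to 7, and 12.005 and 11.75 in BPN/3J ‘peak’ mice 10 and 11, against 10.79 to 10.90 in BPN/3J mice 5 to 8. These ranges do not overlap in either strain, and Mt1 also had its highest 2 values in these mice in both strains (11.66 to 11.73 in BPH/2J and 11.46 to 11.69 in BPN/3J mice). The numbers come from the titles, and no source used here says what sets the higher ones apart. In the fit with array weights their weights were low, 0.47 and 0.40 in BPH/2J and 0.42 and 0.30 in BPN/3J mice. The other ‘peak’ mice had 0.74 to 1.58. The share of all probesets that split these mice in the same way is not given here. These 4 mice were singled out with earlier results of the same arrays known, so the split is a description with no test. Nr3c1 in turn was lowest in mouse 9 of BPH/2J, at 9.50, and in mice 10 and 11 of BPN/3J, at 9.23 and 9.51, and it was 9.64 in BPH/2J mouse 8, within the range of the others.

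Since Mt2 falls into separate ranges, its correlations are given first on the 14 arrays without these 4 mice. There Mt1 and Mt2 had r = 0.68 (permutation p = 0.0565, adjusted p = 0.321 over 36 pairs; rho 0.61, permutation p = 0.0802, adjusted p = 0.382), and 0.77 without the 2 farthest arrays. For Mt2 and Nr3c1 r was 0.01 (permutation p = 0.99, adjusted p = 0.99; rho -0.11, permutation p = 0.738, adjusted p = 0.83), and 0.03 without the 2 farthest. For Zbtb16 and Mt2 it was 0.45 (permutation p = 0.22, adjusted p = 0.434; rho 0.39, permutation p = 0.248, adjusted p = 0.47), and 0.19 without the 2 farthest. Over all 18 arrays the values were different, since the gap between the ranges enters them. Mt1 and Mt2 then had r = 0.83 (permutation p = 5e-05, adjusted p = 0.0018; rho 0.81, permutation p = 6e-05, adjusted p = 0.00216; r = 0.795 without the 2 farthest arrays), the one pair of the 36 with an adjusted p under 0.05. Mt2 and Nr3c1 had r = -0.75 (permutation p = 0.00452, adjusted p = 0.077; rho -0.66, permutation p = 0.0132, adjusted p = 0.125; r = -0.505 without the 2 farthest arrays). Leaving out the 4 mice removes the highest Mt2 and the lowest Nr3c1 values of both ‘peak’ groups. The 14 arrays therefore cannot decide on this relation. Zbtb16 and Mt2 had r = 0.16 (permutation p = 0.502, adjusted p = 0.611; rho 0.17, permutation p = 0.466, adjusted p = 0.699; r = 0.335 without the 2 farthest arrays).

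The split also bears on the group differences of Mt2. As measured, the ‘peak’ minus ‘trough’ difference of Mt2 was 0.66 (SE 0.27) in BPH/2J mice and 0.61 (SE 0.27) in BPN/3J mice. No ‘peak’ mouse overlapped a ‘trough’ mouse of its strain, with limma adjusted p of 0.15 and 0.103. In the higher direction this held for 8.19% of all probesets in BPH/2J mice. In BPN/3J mice it held for 11.6%, and for 20.8% in either direction. Without the 4 higher-numbered mice these differences were 0.40 in BPH/2J mice and 0.27 in BPN/3J mice, and the strain difference at ‘peak’ BP was 0.48. Leaving these mice out removes the highest Mt2 values and with them most of its spread, so these values are given with no test. The 4 other genes of the metal response, Mt3, Mt4, the metal-sensing factor Mtf1 and the zinc exporter Slc30a1, had 0 that passed in any of the 5 comparisons, and 1 unadjusted p under 0.05, in BPN/3J mice between the times.

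**Figure D5:**
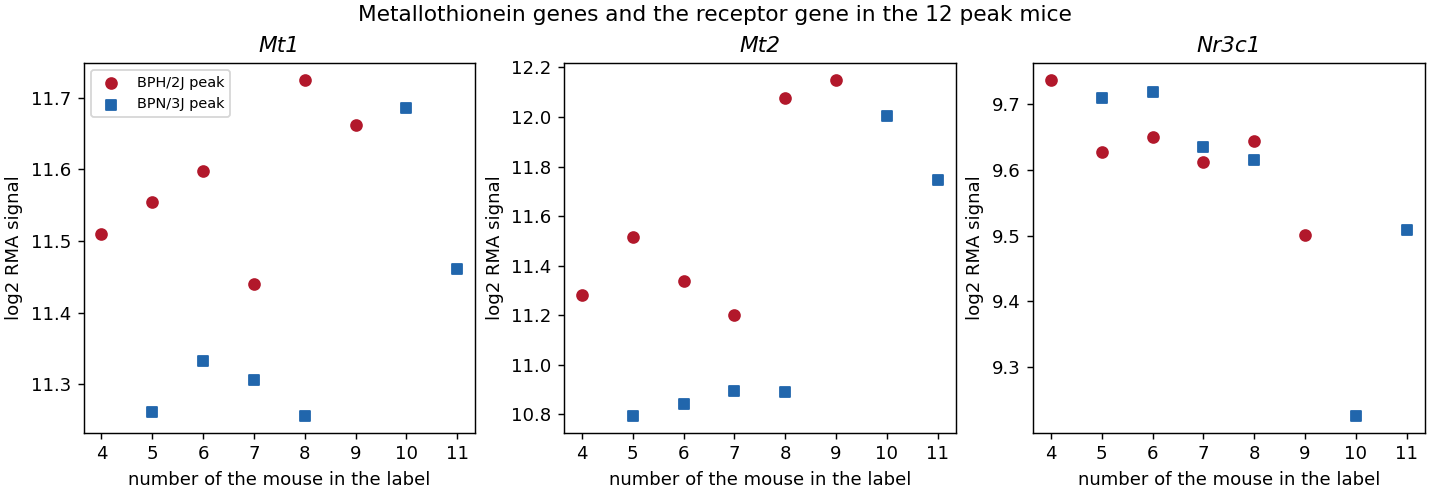
Log2 RMA signal of Mt1, Mt2 and Nr3c1 (vertical) in the 12 ‘peak’ mice by the number in their titles (horizontal). Mt2 is 11.75 to 12.15 in BPH/2J mice 8 and 9 and BPN/3J mice 10 and 11, above all the others of both strains (10.79 to 11.52).

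A wider list held 23 other glucocorticoid-induced genes, all measured. At ‘peak’ BP 18 of the 23 were higher in BPH/2J than in BPN/3J mice, against 48.2% of all probesets, 8 had an unadjusted p under 0.05, against 9.93%, and 2 passed, both higher, against 1.33%. The median difference was 0.12, against -0.01 over all probesets, and the mean of the list ran from 7.73 to 7.82 in the BPH/2J and from 7.50 to 7.68 in the BPN/3J mice. The genes that passed were Fam107a, whose product binds actin, with means of 10.04 in BPH/2J, against 9.37 in BPN/3J mice (difference 0.67, SE 0.13, limma adjusted p = 0.00832), and Glul, the glutamine synthetase of astrocytes, with means of 12.60 in BPH/2J, against 12.32 in BPN/3J mice (difference 0.28, SE 0.07, limma adjusted p = 0.0499). Glul has 2 probesets of 1 symbol, and all its values here are those of the brighter. Per1, a clock gene with a glucocorticoid response element, had a difference of 0.22 (SE 0.10, limma adjusted p = 0.503) and is named after its values were seen.

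At ‘trough’ BP 12 of the 23 were higher in BPH/2J than in BPN/3J mice, against 50.4% of all probesets, and Fam107a passed again, with means of 10.19 in BPH/2J, against 9.29 in BPN/3J mice (difference 0.91, SE 0.18, limma adjusted p = 0.0267). Its strain difference was therefore present at both times, with d = -0.24 (SE 0.22, limma adjusted p = 0.752). Between the times, 4 genes passed higher and 1 lower at ‘peak’ than at ‘trough’ BP in BPH/2J mice, against 8.64% of all probesets passing. In BPN/3J mice 2 passed higher and 4 lower, a share near the 25.3% of all probesets. Ddit4, an inhibitor of mTOR signalling, passed in both strains with differences of 0.70 in BPH/2J mice and 0.80 in BPN/3J mice (SE 0.14 each, limma adjusted p = 0.00463 and 0.00117). Irs2, an adaptor of the insulin receptor, passed in the lower direction in both, at -0.48 in BPH/2J mice and -0.55 in BPN/3J mice (SE 0.10 each, limma adjusted p = 0.00655 and 0.00157). In BPH/2J mice the next smallest p were those of Plekhf1 (0.66, SE 0.16, limma adjusted p = 0.0178) and Glul (0.28, SE 0.08, adjusted p = 0.0461), and in BPN/3J mice those of Map3k6 (-0.46, SE 0.11, limma adjusted p = 0.00705) and Errfi1, an inhibitor of the epidermal growth factor receptor (0.44, SE 0.10, adjusted p = 0.00818). For d, 0 of the 23 passed, with 1 unadjusted p under 0.05.

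Of the 12 genes that serve the receptor, 9 were measured by a probeset of 1 symbol, and 0 passed between the strains at either time, with 0 unadjusted p under 0.05 at ‘peak’ BP and 2 at ‘trough’ BP, against 9.93% and 10.4% of all probesets. Between the times 2 of the 9 passed in BPH/2J mice, both lower, against 8.64% of all probesets, and 4 in BPN/3J mice, 1 higher and 3 lower, against 25.3%. H6pd, which supplies the cofactor for the enzyme that regenerates corticosterone, passed with lower means at ‘peak’ BP by limma in BPH/2J mice (-0.41, adjusted p = 0.0216) and in BPN/3J mice (-0.33, adjusted p = 0.0322). In BPH/2J mice Ncoa1, a coactivator of nuclear receptors, was also lower (-0.38, limma adjusted p = 0.045), and in BPN/3J mice Fkbp4, a co-chaperone of the receptor, was lower (-0.30, limma adjusted p = 0.00753). In BPN/3J mice Hsd11b2, which inactivates corticosterone, was lower (-0.62, limma adjusted p = 0.00453), and the co-chaperone Ptges3 was higher (0.44, limma adjusted p = 0.00236). Ptges3 has 2 probesets of 1 symbol, and the brighter is given. Of the 7 genes of the stress axis 1 passed in any comparison, Crhbp, which binds corticotropin-releasing hormone, in BPN/3J mice between the times (0.76, SE 0.19, limma adjusted p = 0.00924). In that comparison 25.3% of all probesets passed, so this count is not above the background. Atp6ap2, the prorenin receptor, which binds the protein made from Zbtb16, passed with higher means at ‘peak’ BP in both strains, by 0.38 in BPH/2J and by 0.41 in BPN/3J mice (SE 0.08 each, limma adjusted p = 0.00852 and 0.00293). The shares of all probesets passing there were 8.64% and 25.3%. Agtr2, listed with it as a partner of that protein, did not pass in any comparison.

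Markers of the cell types in the tissue were read beside these results, since several of the genes are strongly expressed in glia and vessels. At ‘peak’ BP 4 of 6 astrocyte markers were higher in BPH/2J than in BPN/3J mice and 0 passed, and the mean of the list ran from 9.50 to 9.81 in BPH/2J and from 9.46 to 9.81 in BPN/3J mice. Of 6 endothelial markers 3 were higher and 1, Slco1a4, passed (0.62, limma adjusted p = 0.00931), with list means of 7.82 to 8.11 in BPH/2J and 7.71 to 8.18 in BPN/3J mice. Choroid plexus markers, 6 of 6 lower and 0 passing, varied most within the groups, from 6.16 to 8.26 in BPH/2J and from 5.97 to 8.59 in BPN/3J mice. The hypothalamic list, of the factors Sim1, Otp and Nkx2-1 and the peptide genes Avp, Oxt, Trh, Hcrt and Pomc, had the largest median difference of these lists at ‘peak’ BP. Of its 8 genes 6 were higher in BPH/2J mice, 4 had an unadjusted p under 0.05 (Avp, Oxt, Trh and Hcrt, with differences of 1.09 to 1.20) and 0 passed. Its median difference was 0.61, above the 0.29 of the glucocorticoid-responsive genes, and its mean ran from 7.65 to 8.61 in BPH/2J and from 7.16 to 8.39 in BPN/3J mice. At ‘trough’ BP the median was -0.08. The median of d over this list was 0.65, with 0 of 8 passing. The study singled out Avp, Oxt, Trh and Hcrt on these same arrays, as it did Zbtb16. A high d of this list, or its nearness to the d of Zbtb16, is therefore no independent evidence. The medians of the oligodendrocyte, microglia, neuron, meningeal, thalamic and telencephalic lists at ‘peak’ BP lay between -0.07 and 0.06, and 1 of their genes passed, the thalamic Tnnt1 (-0.90, limma adjusted p = 5.94e-05). At ‘trough’ BP the medians were 0.29 for oligodendrocyte, 0.25 for endothelial and 0.225 for thalamic markers. They were 0.15 for meningeal, 0.14 for microglia, 0.09 for astrocyte and 0.02 for neuron markers. Those of the telencephalic and choroid plexus lists were -0.16 and -0.25. Slco1a4 passed at ‘trough’ BP too, again higher in BPH/2J mice. Of 11 clock genes 9 were higher in BPH/2J mice at ‘peak’ BP and 1 passed, Dbp (0.41, SE 0.09, limma adjusted p = 0.0149). At ‘trough’ BP 9 were higher as well and 0 passed, with a median of 0.28, against 0.15 at ‘peak’ BP. Between the times 0 of the 11 passed in BPH/2J mice, against 8.64% of all probesets. In BPN/3J mice 2 passed, Nr1d2 and Bhlhe41, both higher at ‘peak’ BP, against 25.3%. An array has no zero, so no marker can be said to be absent. The part of tissue composition, the hypothalamic list included, in the differences of Sgk1, Zbtb16 and Mt2 was not tested.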

How the data were processed

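Arrays had been read from total RNA of the hypothalamus. The deposited values are log2 signals that the authors normalized by RMA, and the labels also name limma. Their versions: not given in the sources used here. Every one of the 34760 probesets entered the fits. By the platform annotation 21640 carry 1 symbol, 1321 several and 11799 none, and where several probesets carry a gene the brightest stands for it. A model of 4 group means was fitted in R 4.3.3 with limma 3.58.1 (lmFit and eBayes, 14 residual and 2.94 prior degrees of freedom), with Benjamini-Hochberg adjustment over all probesets, and was tested on simulated data. Deviations from group means were correlated with 100000 permutations within groups. Figures and sequences were handled in Python 3.11.15.

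The members and the gene lists were chosen with earlier results of these data known. All members were named, and of each list up to 4 genes with the smallest p among those that passed in a comparison, besides the 5 genes most like Zbtb16. The numbers in the titles come from no stated pairing. P-values measure the spread between mice. With 1 array per mouse, the number of arrays limits the precision. Alternatives were quantile normalization, median centring, a filter on dim probesets, array weights, another prior, fits of 2 groups, a replicate block, mouse number, means of probesets and leaving out each array.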

Additional observations from a re-analysis of the deposited data

Results flagged for a closer look

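Among the 18 checks of single mice within a ‘peak’ group, 1 value stood apart from its group, Tsc22d3 in BPN/3J ‘peak’ mouse 10, at 8.57 against 8.03 to 8.18 in the other 5 mice. Its gap to the nearest mouse took 0.719 of the range of the group, and chance gives such a value in about 1 group in 20. The same mouse had the highest Mt1 and Mt2 and the lowest Nr3c1 of the BPN/3J mice at ‘peak’ BP, at 11.69, 12.005 and 9.23.

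The strain difference of Zbtb16 at ‘peak’ BP less that at ‘trough’ BP was 0.69, with an unadjusted p of 0.0318 and a limma adjusted p of 0.596, so it did not pass over all probesets. Of the BPN/3J ‘trough’ mice behind it, 1 was at 7.64 and the other 2 at 8.53 and 8.62.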

How the results depend on the processing

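Of the 9 genes, 1 passed between the strains at ‘peak’ BP. The count was 2 after quantile normalization, which added Fkbp5 (adjusted p = 0.0487), 0 with arrays centred on their medians (Sgk1 at 0.0501), 2 with a term for higher-numbered ‘peak’ mice, and 0 to 2 without single arrays. Without the higher-numbered mice it was 1, but Sgk1 was lost (0.62, limma adjusted p = 0.102) and Mt2 took its place. At ‘trough’ BP it was 0, but 2 with array weights, and 0 without any single array. Between the times in BPH/2J mice it was 1, but 0 with centred arrays, 2 each with dim probesets left out, array weights, a trend and robust prior or the term for mouse number, 3 without the higher-numbered mice, and 0 to 2 without single arrays. In BPN/3J mice it was 0, but 2 with centred arrays, 1 with dim probesets left out, 3 with array weights, 1 with the term for mouse number, and 0 to 1 without single arrays. The term for mouse number added Mt2 in each case. Leaving the higher-numbered mice out also added it, between the strains at ‘peak’ BP and between the times in BPH/2J mice. The highest ‘peak’ values of Mt2 lie in these mice, so those counts are no gain of support. For d it was 0, but 1 with array weights, where Zbtb16 reached 1.02 (limma adjusted p = 0.0269). That fit gave BPN/3J ‘trough’ mouse 3 a weight of 9.44, against 0.41 and 0.64 for the other 2 mice of its group. The d of Zbtb16 was 0.51 to 1.00 without single arrays. Zbtb16 deviated with 7 of 8 partners, and with 4 to 7 without single arrays.

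No source used here says that the mouse numbers pair the strains. Same-numbered arrays of a time had residual correlations of -0.3 to 0.19 over all probesets, which cannot exclude a pairing. With a replicate block on the 12 arrays with shared numbers, d of Zbtb16 was 0.69 (limma adjusted p = 0.536) and 0 genes passed between the strains at ‘peak’ BP, with Sgk1 at 0.63 (adjusted p = 0.107). The same 12 arrays with no replicate block, a fit chosen after seeing the data, also gave 0, with Sgk1 at an adjusted p of 0.129, and 0 between the times in BPH/2J mice. With and without the block Nr3c1 at ‘peak’ BP turned to -0.036, d of Klf9 to -0.092 and d of Mt1 to 0.068.

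The other changes of sign were all of differences that did not pass. Quantile normalization turned Fkbp5 between the strains at ‘trough’ BP to -0.016, Klf9 and Nr3c1 between the times in BPN/3J mice to -0.096 and -0.078, and d of Pdk4 to 0.007. Array weights turned Pdk4 to -0.049 between the strains at ‘trough’ BP, to -0.008 between the times in BPN/3J mice and to 0.26 in d, and d of Mt1 to 0.11. The term for mouse number turned Klf9 between the times in BPN/3J mice to -0.041. Without the higher-numbered mice it was -0.013, Nr3c1 between the strains at ‘peak’ BP was -0.013 and d of Pdk4 was 0.054. Without single arrays Nr3c1 at ‘peak’ BP ran from -0.009 to 0.09, and at ‘trough’ BP Fkbp5 ran from -0.03 to 0.18, Sgk1 from -0.021 to 0.39 and Klf9 from -0.012 to 0.24. Between the times in BPN/3J mice Sgk1 ran from -0.051 to 0.36, Klf9 from -0.11 to 0.14 and Nr3c1 from -0.016 to 0.094. For d the ranges were -0.063 to 0.14 for Tsc22d3, -0.042 to 0.21 for Klf9, -0.16 to 0.17 for Pdk4, -0.14 to 0.051 for Mt1 and -0.067 to 0.21 for Mt2. The r with Zbtb16 ran from -0.26 to 0.52 for Sgk1, from -0.18 to 0.47 for Klf9 and from -0.038 to 0.46 for Mt1. The cause of these changes was not tested. Groups of 3 limit all ‘trough’ values, and the arrays have no stated batches.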
